A study of Mus musculus with 6 samples.

Results

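The neutrophil granule and maturation genes are 31 genes that encode the granule proteins, surface receptors, oxidase subunits and a transcription factor of the neutrophil line. They were chosen as a named list and matched by gene symbol to the Ensembl identifiers of the count table. All 31 were found, among 48709 mouse gene rows, and all 31 passed the filter on low counts. They were divided by role into 5 primary granule genes, 10 specific granule genes, 10 late and mature genes and 6 genes that neutrophils share with monocytes and macrophages. The list names are approximate. The primary granule list includes Ms4a3, a membrane protein gene, and the specific granule list includes Cebpe, a transcription factor gene.

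RNA-seq of total cochlear RNA was carried out on 3 knock-in mice (KI, genotype Hgfdel10Neo/del10Neo) and 3 wild-type littermates (wt, genotype Hgf+/+). In the knock-in allele, intron 5 of Hgf lacks 10 bp and holds a Neo cassette. Both copies carry it in every cell, and the strain is a model of the human deafness DFNB39. All mice were between 5 and 27 weeks old, and the age of each mouse is not known here. Each library came from a separate mouse, and the study compared the groups with a count model.

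Neutrophils form in the marrow in steps, and each step fills a different granule. Promyelocytes make the primary granule proteins, which include myeloperoxidase and the elastase-like proteases. Myelocytes and metamyelocytes then make the specific granule proteins, such as lactoferrin and cathelicidin, under the transcription factor C/EBP epsilon, and late cells gain gelatinase granules, the chemokine receptor Cxcr2 and abundant S100a8 and S100a9. Transcripts of primary granule proteins are therefore characteristic of precursors, and those of Cxcr2 and Retnlg of mature cells.

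Library depth lay between 24005234 and 34437746 gene counts in knock-in and between 24144106 and 42312291 in wild-type. Hgf, the targeted gene, averaged 10.07 ± 0.724 CPM in knock-in and 15.6 ± 0.572 CPM in wild-type cochlea (SD, n = 3 each), and the groups did not overlap (edgeR adjusted p = 0.246). Reads of the Neo cassette numbered 71, 199 and 5 in knock-in replicates 1, 2 and 3, against 5, 8 and 10 in the wild-type libraries. The library labelled knock-in replicate 3 was therefore at the wild-type level for Neo, while its Hgf, at 10.5 CPM, lay below every wild-type library. Counts of members are given with this library and, for the main ones, also without it. All 10 genes of a cochlear marker list had reads in every library, with a summed level of 2999 to 3465 CPM in knock-in and 2790 to 3209 CPM in wild-type. Most of this sum was Coch alone, at 2588 to 3063 CPM in knock-in and 2375 to 2762 CPM in wild-type. Transcripts of Xist, which coats the silenced X chromosome of females, were abundant in knock-in replicate 3 and wild-type replicate 2 and near 0 in the other libraries.

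Promoter sequences are shown first for 6 genes, because the neighbours Prtn3 and Elane form the tightest pair on a chromosome and because Ngp, Lcn2, Pglyrp1 and Itgam had the smallest p-values of the list. Each is the RefSeq window from 250 bases before to 50 bases after the first start listed for the gene on GRCm38.p6. The gene bounds used below for distances between genes come from another annotation, in which Pglyrp1 starts at 18871331 and Prtn3 at 79874476. Capitals mark matches to GAGGAA, a core of sites of the myeloid factor PU.1, and to TTGCNNAA, a core of C/EBP sites, on either strand. The windows lie at chr10:79886062-79886361 on the forward strand for Elane, chr10:79879417-79879716 on the forward strand for Prtn3, chr9:110419558-110419857 on the forward strand for Ngp, chr2:32387690-32387989 on the reverse strand for Lcn2, chr7:18884440-18884739 on the forward strand for Pglyrp1 and chr7:128062390-128062689 on the forward strand for Itgam.
Elane: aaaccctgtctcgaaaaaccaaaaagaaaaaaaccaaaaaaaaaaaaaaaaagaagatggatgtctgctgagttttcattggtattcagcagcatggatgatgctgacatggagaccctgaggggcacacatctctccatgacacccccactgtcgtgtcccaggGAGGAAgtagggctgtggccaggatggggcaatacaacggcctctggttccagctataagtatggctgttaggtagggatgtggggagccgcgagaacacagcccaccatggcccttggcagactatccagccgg
Prtn3: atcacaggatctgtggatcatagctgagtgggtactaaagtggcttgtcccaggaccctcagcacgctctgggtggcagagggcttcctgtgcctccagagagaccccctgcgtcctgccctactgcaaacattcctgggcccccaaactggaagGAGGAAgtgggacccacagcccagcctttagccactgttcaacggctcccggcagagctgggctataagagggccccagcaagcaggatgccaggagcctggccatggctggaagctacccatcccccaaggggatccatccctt
Ngp: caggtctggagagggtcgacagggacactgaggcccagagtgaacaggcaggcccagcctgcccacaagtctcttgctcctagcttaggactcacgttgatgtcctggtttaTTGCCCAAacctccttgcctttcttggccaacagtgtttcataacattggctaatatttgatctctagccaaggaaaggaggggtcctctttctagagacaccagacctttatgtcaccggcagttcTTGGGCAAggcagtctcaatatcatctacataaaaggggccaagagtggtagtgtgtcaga
Lcn2: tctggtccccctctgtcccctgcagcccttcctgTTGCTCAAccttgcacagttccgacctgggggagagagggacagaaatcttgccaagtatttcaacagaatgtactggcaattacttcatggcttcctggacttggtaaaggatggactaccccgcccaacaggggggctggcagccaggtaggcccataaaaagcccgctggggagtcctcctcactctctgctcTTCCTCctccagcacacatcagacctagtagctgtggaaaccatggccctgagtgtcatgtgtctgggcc
Pglyrp1: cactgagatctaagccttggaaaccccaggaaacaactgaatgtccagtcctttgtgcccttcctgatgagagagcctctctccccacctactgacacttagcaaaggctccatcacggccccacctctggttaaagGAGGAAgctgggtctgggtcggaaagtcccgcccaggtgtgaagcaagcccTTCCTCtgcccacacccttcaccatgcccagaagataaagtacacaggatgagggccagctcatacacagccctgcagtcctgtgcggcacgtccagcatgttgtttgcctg
Itgam: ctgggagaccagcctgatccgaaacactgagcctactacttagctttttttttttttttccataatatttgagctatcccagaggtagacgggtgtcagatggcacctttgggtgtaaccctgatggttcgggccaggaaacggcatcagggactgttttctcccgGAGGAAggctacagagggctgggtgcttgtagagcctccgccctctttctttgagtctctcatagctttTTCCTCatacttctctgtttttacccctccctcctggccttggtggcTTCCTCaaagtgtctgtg

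Promoter windows were found for 27 of the 31 genes. GAGGAA occurred in 17 of the 27, against 28.3% of 27025 gene promoters of the same length, and TTGCNNAA in 10 of the 27, against 10.8%. All 5 primary granule promoters held GAGGAA, and 1 of the 5, that of Ms4a3, held TTGCNNAA. Among 8 specific granule promoters, 4 held GAGGAA and 4 held TTGCNNAA. The match began 85 bases before the start in Elane and 95 bases before it in Prtn3. Both motifs occurred in 6 of the 27 windows, against 2.92% of all genes. These are matches of letters in a fixed window, and binding was not measured.

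Several members also lie close together. Prtn3 and Elane are on chromosome 10 with 3072 bases between them, in the same orientation. S100a8 and S100a9 are on chromosome 3 with 22596 bases between them, in opposite orientations. Camp, Ngp and Ltf, which encode 3 specific granule proteins, lie on chromosome 9 within the stretch from 109847379 to 111042767.

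No member passed the test between knock-in and wild-type cochlea. In edgeR's quasi-likelihood test with Benjamini-Hochberg adjustment, 0 of 31 members were called, against 7 of all 20733 genes tested (0.0338%, with 0.0241% lower and 0.00965% higher), and the smallest adjusted p of a member was 0.966. DESeq2 and limma-voom also called 0 of 31, with 4 members at an unadjusted p under 0.05 in each. In the authors' deposited table the smallest adjusted p of a member was 0.677. At an unadjusted p under 0.05, 4 members were lower in knock-in and 0 higher, against 1.96% and 2.54% of all genes. The groups did not overlap for 1 member, Itgam, which was lower in every knock-in library. Over all genes, every knock-in library was lower for 4.01% and higher for 4.71%. Log2 fold changes of knock-in over wild-type were negative for 24 and positive for 7 members, against 49.8% negative over all genes, with a median of -0.11 (all genes 0.00). They ran from -0.44 for Itgam to 0.13 for Chil3. The 95% intervals of all 31 members lay between a fold of 0.575 and a fold of 1.45. The p-values weigh each group difference against the spread between the 3 mice per group, with the estimate of that spread moderated over all genes tested. In bulk tissue, fewer cells of a type and less RNA per cell cannot be told apart.

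**Figure D1:**
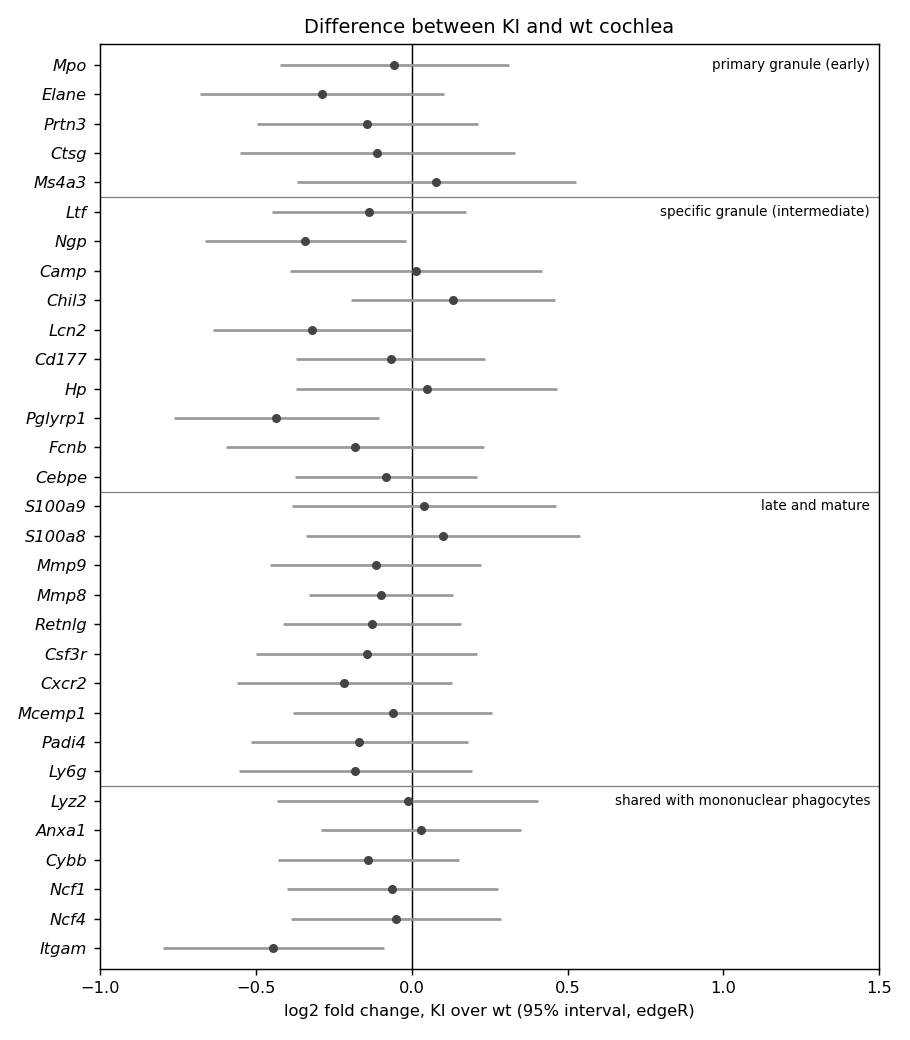
Log2 fold change of each member, knock-in over wild-type (x axis), with its 95% interval from the edgeR fit, ordered by role and by mean level. Points run from -0.44 (Itgam) to 0.13 (Chil3), and the intervals of 27 of the 31 include 0.

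The members made up a sizeable part of the cochlear libraries. Of all gene counts they took 1.42%, 1.79% and 1.68% in knock-in replicates 1, 2 and 3, against 1.87%, 1.40% and 1.86% in wild-type. The lowest count of any member in any library was 423 and the highest 201665. Per kilobase of annotated exon, and averaged over the 6 libraries, S100a9 was highest at 8026 CPM per kb, followed by S100a8 at 4266, Lyz2 at 1579, Camp at 972 and Ngp at 925 CPM per kb. Padi4, at 6.72 CPM per kb, and Itgam, at 4.33 CPM per kb, were lowest. The value of Itgam is uncertain, because 3450 of its 5024 exon bases are shared on the same strand with the gene model Gm49368, which had 1 to 8 counts per library. Reads of Lyz2 and Chil3 could in part be divided with the similar genes Lyz1 (94 to 441 counts) and Chil4 (2 to 12 counts). Ly6g also belongs to a family of similar genes.

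**Figure D2:**
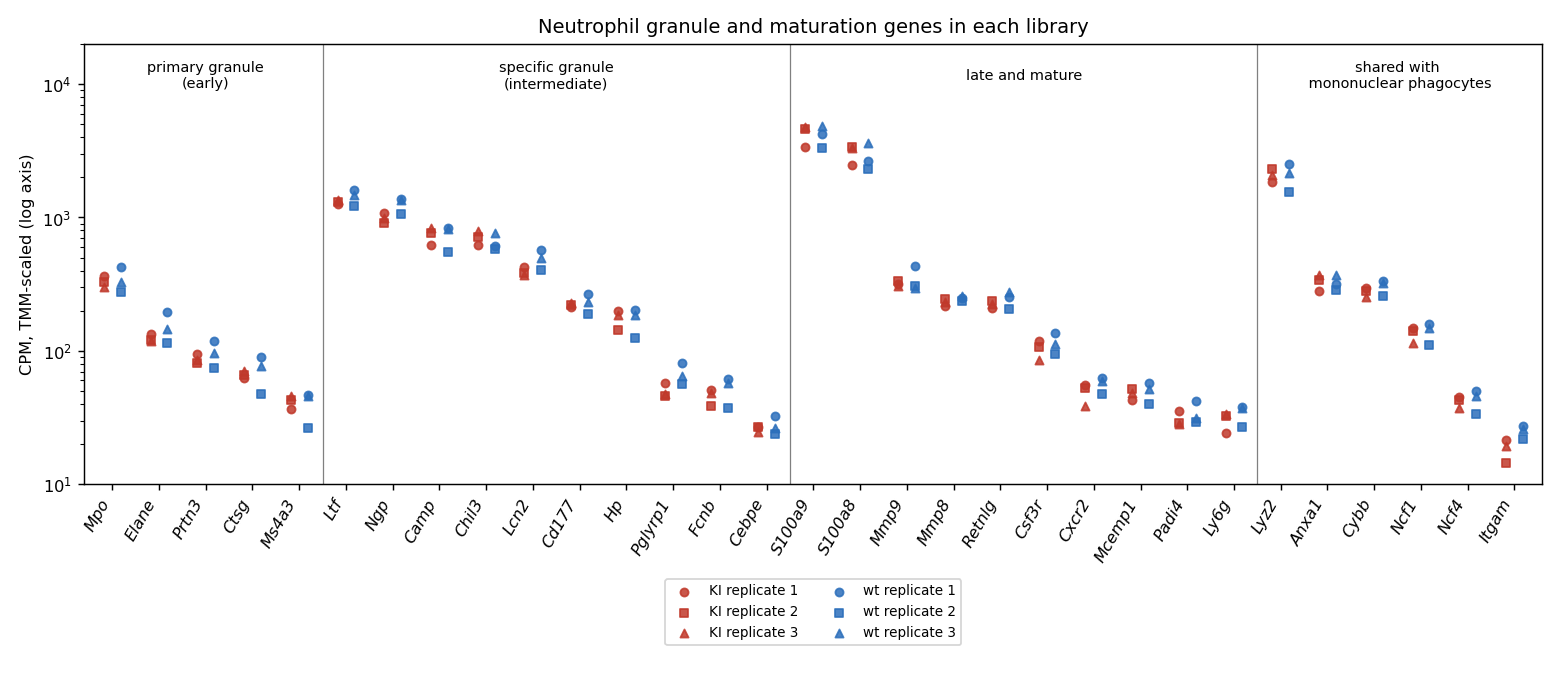
Level of each of the 31 members in each library (CPM on a log axis), with knock-in libraries to the left and wild-type libraries to the right of each gene. S100a9 and S100a8 are highest, and the colours overlap for every gene except Itgam.

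The primary granule genes in knock-in cochlea lay within the wild-type range in all 5 cases, and 0 of 5 were called. Mpo, which encodes the peroxidase that makes hypochlorous acid, was at 364, 328 and 300.1 CPM in knock-in replicates 1, 2 and 3, against 428, 274 and 329.6 CPM in the wild-type replicates. All 3 knock-in values lay inside the wild-type range, and the log2 fold change was -0.06 (SE 0.16, 95% interval -0.42 to 0.31). Elane, neutrophil elastase, was at 134, 121 and 118 CPM in knock-in and at 196, 114 and 146 CPM in wild-type. Its log2 fold change of -0.29 (SE 0.17) was the most negative of the 5, and it was -0.06 without wild-type replicate 1. Prtn3, the neighbouring proteinase 3 gene, was at 94.96, 81.5 and 85.2 CPM in knock-in, against 118, 73.9 and 96.4 CPM in wild-type. Ctsg, cathepsin G, was at 62.2, 65.8 and 70.9 CPM in knock-in and at 90.3, 47.7 and 76.6 CPM in wild-type. Log2 fold changes were -0.14 for Prtn3, -0.11 for Ctsg and 0.08 for Ms4a3, a membrane protein gene of granulocyte and monocyte progenitors. For all 5 genes wild-type replicate 1 was the highest library, wild-type replicate 2 the lowest, and the knock-in libraries fell between them. Prtn3 shares 159 exon bases with Plppr3 on the opposite strand, which had 210 to 414 counts per library.

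The specific granule genes held 3 of the 4 smallest p-values, and 0 of 10 were called. Ltf, the iron-binding protein lactoferrin, was the most abundant of the 10 by CPM, at 1253, 1308 and 1357 CPM in knock-in and 1618, 1214 and 1477 CPM in wild-type. The knock-in libraries again lay inside the wild-type range, with a log2 fold change of -0.14 (SE 0.14). Ngp, a cystatin-like granule protein related to cathelicidin, was at 1087, 915 and 991 CPM in knock-in, against 1374, 1055 and 1362 CPM in wild-type. Its promoter window held 2 matches to TTGCNNAA, and its log2 fold change was -0.34 (SE 0.14, unadjusted p = 0.0401 in edgeR), and knock-in replicate 1 overlapped wild-type replicate 2. Lcn2, the siderophore-binding lipocalin, was at 422, 384 and 368 CPM in knock-in and 567, 401 and 496 CPM in wild-type, a log2 fold change of -0.32 (SE 0.14, unadjusted p = 0.0498 in edgeR). Pglyrp1, which encodes a peptidoglycan recognition protein, was at 57.2, 46.0 and 47.2 CPM in knock-in, against 81.7, 56.5 and 65.1 CPM in wild-type. Its window held 2 matches to GAGGAA, and its log2 fold change was -0.43 (SE 0.15, unadjusted p = 0.0151 in edgeR), and the groups overlapped only in that knock-in replicate 1, at 57.2 CPM, exceeded the lowest wild-type library, at 56.5 CPM. For these 3 genes the adjusted p was 0.966 in each case.

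Camp, the cathelicidin precursor, did not share that direction. It was at 618, 762 and 841 CPM in knock-in and 832, 555 and 814 CPM in wild-type, with a log2 fold change of 0.01 (SE 0.18). Knock-in replicate 3 was its highest library and wild-type replicate 2 its lowest. Chil3, a chitinase-like protein gene, had the highest log2 fold change of all members (0.13, 95% interval -0.19 to 0.46), and Hp, haptoglobin, was at 0.05. Log2 fold changes of the other 3 genes were -0.18 for Fcnb, a ficolin, -0.07 for Cd177, a neutrophil surface glycoprotein, and -0.08 for Cebpe, the transcription factor of this step. Cebpe averaged 26.1 ± 1.39 CPM in knock-in and 27.6 ± 4.52 CPM in wild-type (SD, n = 3 each). Over the 10 genes, 7 had negative and 3 positive log2 fold changes, with a median of -0.11. Without knock-in replicate 3, Camp was at -0.088, and 8 were negative and 2 positive.

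The late and mature genes included the most abundant members, and 0 of 10 were called. S100a9, which forms calprotectin with S100a8, was at 3392, 4578 and 4778 CPM in knock-in and 4229, 3343 and 4817 CPM in wild-type. All knock-in values lay within the wild-type range, and the log2 fold change was 0.04 (SE 0.19, 95% interval -0.38 to 0.46). S100a8 averaged 3064 ± 494 CPM in knock-in and 2857 ± 665 CPM in wild-type (SD, n = 3 each). Cxcr2, the chemokine receptor used to leave the marrow and reach inflamed tissue, was at 55.3, 52.4 and 38.5 CPM in knock-in and 62.3, 47.8 and 59.7 CPM in wild-type. Its log2 fold change of -0.21 (SE 0.15) was the most negative of the 10, and knock-in replicate 3 was the lowest library. Without that library it was -0.073, nearer to 0 than Ly6g at -0.26 and Retnlg at -0.13. Ly6g, a surface protein used to mark mouse neutrophils, was at 24.3, 32.4 and 33.4 CPM in knock-in, against 37.8, 26.8 and 37.4 CPM in wild-type (log2 fold change -0.18, SE 0.17). Padi4, the enzyme that citrullinates histones in extracellular traps, was at 35.1, 28.6 and 28.0 CPM in knock-in, against 42.3, 29.3 and 31.6 CPM in wild-type (log2 fold change -0.17, SE 0.15).

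The remaining late genes did not pass the test either. The collagenase gene Mmp8 averaged 232 ± 14.5 CPM in knock-in and 248 ± 12.3 CPM in wild-type (SD, n = 3 each), and it had the narrowest interval of the list (log2 fold change -0.10, 95% interval -0.33 to 0.13). The gelatinase gene Mmp9 had a log2 fold change of -0.11, and its wild-type value rested in part on replicate 1, at 434 CPM beside 309 and 298 CPM in the other wild-type mice. Osteoclasts also express Mmp9, and a list of 6 osteoclast genes summed to 373 to 630 CPM in knock-in and 506 to 658 CPM in wild-type. The part of those cells in the Mmp9 value was not tested. Log2 fold changes were -0.13 for Retnlg, a resistin-like gene of mature neutrophils, -0.14 for Csf3r, the receptor of granulocyte colony-stimulating factor, and -0.06 for Mcemp1. Leaving out knock-in replicate 3 put Csf3r at -0.024, and leaving out wild-type replicate 1 put it at -0.00090.

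Among the genes shared with monocytes and macrophages, 0 of 6 were called. Lyz2, lysozyme, was at 1832, 2295 and 2082 CPM in knock-in and 2538, 1561 and 2164 CPM in wild-type, with a log2 fold change of -0.01 (SE 0.19). Cybb, the catalytic subunit of the phagocyte NADPH oxidase, was at 295, 283 and 252 CPM in knock-in, against 332, 257 and 324 CPM in wild-type (log2 fold change -0.14, SE 0.13). Ncf1, a cytosolic subunit of the same oxidase, was at 148, 139.9 and 114 CPM in knock-in and 159, 112 and 148 CPM in wild-type, a log2 fold change of -0.06 (SE 0.15). Ncf1 shares 408 exon bases with Gtf2ird2 on the opposite strand, which had 348 to 655 counts per library. Ncf4, another cytosolic subunit, and Anxa1, annexin A1, were at -0.05 and 0.03. Itgam, the alpha M integrin chain of phagocytes, was at 21.4, 14.4 and 19.5 CPM in knock-in, against 27.5, 21.8 and 25.9 CPM in wild-type. The groups did not overlap, with all 3 knock-in values below the wild-type range, and the log2 fold change was -0.44 (SE 0.16, unadjusted p = 0.0194 in edgeR). The window of Itgam held 3 matches to GAGGAA. Its partner chain Itgb2, which is not a member and was chosen for its role, had a log2 fold change of -0.19 (SE 0.15).

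Most members shared their highest and lowest library, and both were wild-type littermates. The knock-in libraries showed no such order, with Hp and Csf3r above and S100a9 and Ly6g below their means in knock-in replicate 1. Wild-type replicate 1 was the highest library for 24 of the 31 members, against 19.4% of all genes tested, and wild-type replicate 2 the lowest for 19, against 15.4%. No member was highest in wild-type replicate 2. Wild-type replicate 3 was highest for 4 members and lowest for 1. Its mean log2 level, relative to the mean over the 6 libraries, was 0.11 to 0.16 in each role list. Wild-type replicate 2 was also the only wild-type library with abundant Xist. Xist was abundant in knock-in replicate 3 too, where the members summed to 17467 CPM, against 14773 and 17361 CPM in knock-in replicates 1 and 2. Knock-in replicate 3 was the highest library for 3 members and the lowest for 5. The part of sex in these values was not tested and cannot be told apart from other differences between the mice. The knock-in values lay wholly inside the wild-type range for 18 members, against 18.7% of all genes. The ratio of the highest to the lowest library had a median of 1.24 in knock-in and 1.44 in wild-type, and it was wider in wild-type for 27 of 31 members, against 47.6% of all genes. Without the library labelled knock-in replicate 3, wild-type replicate 1 was highest for 25 members and wild-type replicate 2 lowest for 22, against 22.8% and 22.6% of all genes. The knock-in values then lay inside the wild-type range for 23 members, against 33.1% of all genes, and the wild-type range was wider for 29, against 72.1%. Negative log2 fold changes again numbered 24, against 51.0% of all genes. The median log2 fold change of the members was -0.11 with all libraries. It was 0.03 without wild-type replicate 1 and -0.20 without wild-type replicate 2. Without the library labelled knock-in replicate 3 it was -0.09. Members at an unadjusted p under 0.05 numbered 0 without wild-type replicate 1 or knock-in replicate 2, 1 without wild-type replicate 3, 2 without knock-in replicate 3 and 8 without wild-type replicate 2, and no setting called a member after adjustment. When each library was left out in turn, log2 fold changes stayed negative for the 4 members with the smallest p, at -0.55 to -0.28 for Pglyrp1, -0.56 to -0.29 for Itgam, -0.46 to -0.28 for Ngp and -0.44 to -0.20 for Lcn2. Since most members share their highest and lowest library, the 24 negative signs are not separate observations.

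**Figure D3:**
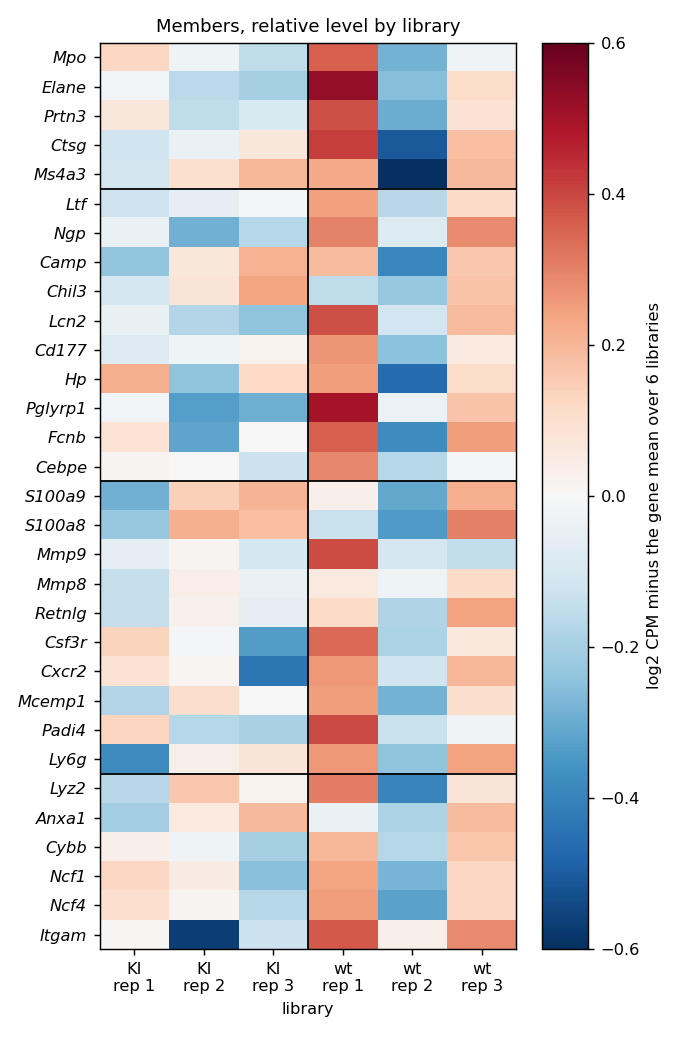
Log2 CPM of each member minus its mean over the 6 libraries, by library (columns, knock-in left and wild-type right) and gene (rows, grouped by role). Wild-type replicates 1 and 3 are above the mean and wild-type replicate 2 below it for most rows, and the knock-in columns are mixed.

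Early and late genes were also compared within each library. The primary granule genes summed to 692, 639.6 and 620.0 CPM in knock-in replicates 1, 2 and 3, against 879, 536 and 695 CPM in the wild-type replicates. The late and mature genes summed to 6907, 9052 and 9089 CPM in knock-in and to 8165, 6639 and 9540 CPM in wild-type. Specific granule genes, which are filled in between, summed to 4552, 4557 and 4883 CPM in knock-in and to 5645, 4231 and 5474 CPM in wild-type. Wild-type replicate 2 gave the lowest sum in each of these 3 lists. The late sum was 9.98, 14.2 and 14.7 times the early sum in knock-in, and 9.29, 12.4 and 13.7 times in wild-type, so 1 library of each group had a low ratio and the groups overlapped. These ratios weigh the most abundant genes most and are no even balance of mature and precursor genes. In knock-in replicate 1, S100a9 at 3392 CPM and S100a8 at 2495 CPM made up most of the late sum. Mpo, at 364 CPM, was the largest part of the early sum there. S100a8 alone was 18.6, 27.9 and 28.1 times Elane in knock-in and 13.6, 20.3 and 24.6 times Elane in wild-type, in CPM without correction for length. The mean log2 level of early genes minus that of late genes, each relative to its mean over the libraries, was 0.01 ± 0.098 in knock-in and -0.01 ± 0.191 in wild-type (SD, n = 3 each). These sums over chosen genes are given without a test.

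**Figure D4:**
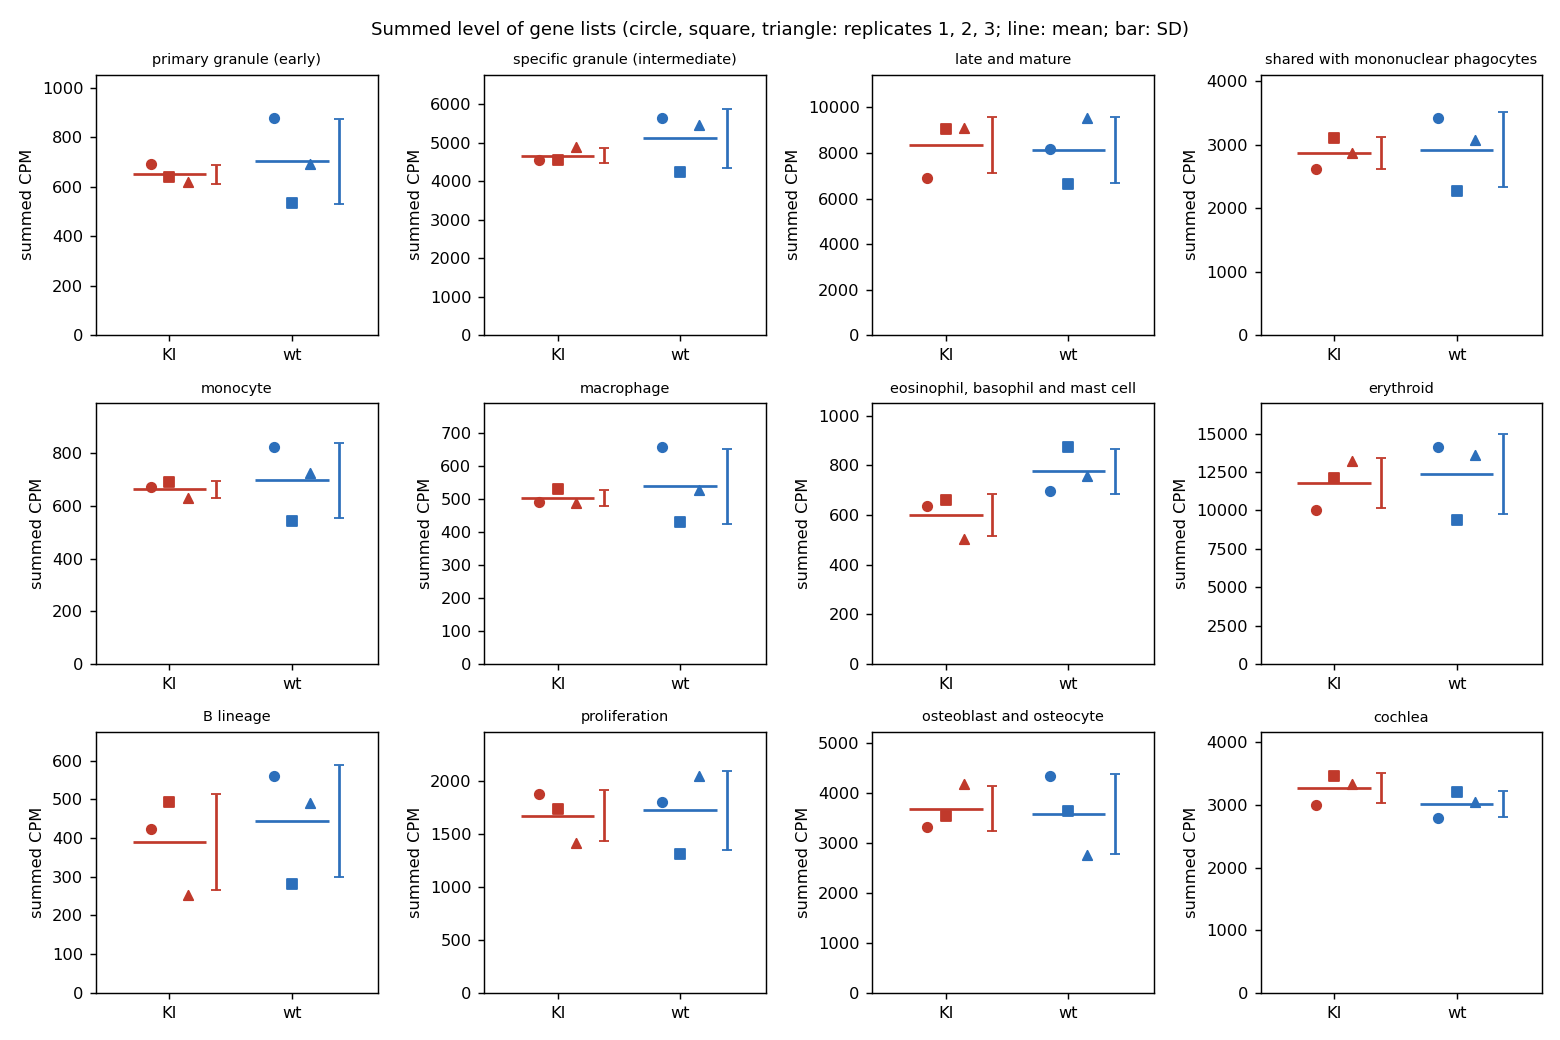
Summed CPM of the 4 member lists and of 8 lists of other cells or processes in each library, with knock-in left and wild-type right in each panel, the mean as a line and the SD as a bar. The primary granule sum spans 620.0 to 692 CPM in knock-in and 536 to 879 CPM in wild-type.

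A further list held other genes of granulopoiesis and neutrophil function. Of its 47 genes, 42 passed the filter, 0 were called in either direction, 27 had negative and 15 positive log2 fold changes, and the median was -0.04. The 5 that did not pass were the chemokine genes Cxcl1 and Cxcl2, Csf3, the ligand of Csf3r, Stfa2 and Bpi. Cebpa, a transcription factor of early granulocyte progenitors, had the smallest p of the list, at 33.4, 34.5 and 55.7 CPM in knock-in, against 23.9, 23.8 and 25.6 CPM in wild-type. All knock-in libraries were higher, with a log2 fold change of 0.75 (SE 0.19, edgeR adjusted p = 0.966). Of the 42 genes, every knock-in library was higher for 2 and lower for 1, against 4.71% and 4.01% of all genes. Orm1, the acute phase protein orosomucoid, had the next smallest p, with a log2 fold change of 0.58 (SE 0.26), and its groups overlapped. Adipocytes also express Cebpa, and 6 adipocyte genes, picked after these values were seen, all had positive log2 fold changes of 0.74 to 2.08. Their summed level was 166 to 753 CPM in knock-in and at most 186 CPM in wild-type, none of their defining genes was at 0, and their part in the Cebpa value was not tested. Chosen for their role and not by p, Runx1 and Spi1, the gene of PU.1, were at -0.02 and -0.08, and Gfi1, a repressor needed for granulocyte formation, at 0.01.

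Genes of other marrow and blood cells are given beside the members. The erythroid list of 13 genes summed to 10023, 12095 and 13250 CPM in knock-in and 14139, 9378 and 13587 CPM in wild-type. Wild-type replicate 2 was the lowest library for 10 of the 13. The monocyte list of 8 genes summed to 670, 691 and 628 CPM in knock-in and 824, 544 and 725 CPM in wild-type, and the macrophage list of 10 genes to 491, 529.7 and 486 CPM in knock-in and 657, 429 and 527 CPM in wild-type. In both, wild-type replicate 1 was the highest library and wild-type replicate 2 the lowest. The B lineage list of 12 genes summed to 422, 493 and 254 CPM in knock-in and 561, 282 and 489.8 CPM in wild-type, low in knock-in replicate 3 as well as in wild-type replicate 2. These were also the libraries with abundant Xist, and the part of sex was not tested. The 10 proliferation genes were at 1877, 1728 and 1409 CPM in knock-in and 1802, 1309 and 2046 CPM in wild-type. Other lists had another order, in their sums or gene by gene. The platelet list of 6 genes summed to 384, 566 and 431 CPM in knock-in and 472, 401 and 425 CPM in wild-type. The progenitor list of 6 genes summed to 189, 189.6 and 172 CPM in knock-in and 192, 169.5 and 191 CPM in wild-type. These progenitor sums were also highest in wild-type replicate 1 and lowest in wild-type replicate 2, within a narrow range. Gene by gene, wild-type replicate 2 was lowest for 0 genes of either list. The eosinophil, basophil and mast cell list summed to 502 to 659 CPM in knock-in and 697 to 874 CPM in wild-type, highest in wild-type replicate 2. Most of this sum was Prg2 alone, at 312 to 438 CPM in knock-in and 458 to 593 CPM in wild-type. Mcpt8 and Prss34, of the same list, were lowest in wild-type replicate 2. None of the 4 defining markers Hbb-bs, Csf1r, C1qa and Cd79a was at 0 in any library, and 0 genes of these 8 lists were called. The part of marrow or blood content in the members' values was not tested.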

How the data were processed

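Ribosomal RNA was removed from total cochlear RNA before random-primed cDNA synthesis, and pairs of 93 bases were read, per the labels' protocols. STAR 2.5.2 and the build GRCm38 are named in the submitters' processing notes. Which program counted the reads, and whether by strand, is not given in the sources used here. Whole-number counts per gene and library were deposited without normalization. From DESeq2 the authors deposited a table of p-values, a Wald score, log2 fold changes and their errors, and for each feature a signal averaged over libraries after scaling by size factors. Their regularized log table was not used, because the counts were tested directly.

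The 48733 rows held 24 rows that were no mouse genes, between 0.00151% and 0.0045% of a library's gene counts, which were left out of all totals and tests. Symbols, positions and exon lengths came from GENCODE M21 on the same build, and 48349 of 48709 identifiers matched. The test was run in edgeR 4.0.16 under R 4.3.3 (filterByExpr by group, TMM, glmQLFit and glmQLFTest with defaults, group as the only term) and adjusted by Benjamini-Hochberg over 20733 genes with a threshold of 0.05. Standard errors (SE) are the absolute log2 fold change over the root of the F statistic, and they gave the 95% intervals. Library sizes for CPM were scaled by TMM factors, and groups are given as mean ± SD. The fit was run on simulated counts with planted differences larger than that of any member. That run says nothing of how well differences as small as those of the members are found. All library pairs differed by at least 20.9 in chi-square per degree of freedom, and none was counted as a repeat.

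Members and lists were chosen with earlier results of these data known. Values per library are given for members with an unadjusted p under 0.05 or, in their role list, the 3 smallest p, the highest CPM or the highest CPM per kb. Of each other list the 2 genes with the smallest p were named, except 1 that is not reported here. Alternatives tried were upper-quartile and RLE scaling, no filter, a stricter filter (1 CPM in 3 libraries), DESeq2 1.42.0 with the same filter, limma-voom (limma 3.58.1), the bias-adjusted quasi-likelihood and leaving out each library.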

Additional observations from a re-analysis of the deposited data

How the results depend on the processing

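No paired analysis was possible because the replicate numbers only follow the accessions and link no mice across groups. Under 13 other settings 0 members were called, with a lowest adjusted p of 0.364 (Pglyrp1, edgeR with no filter). Over all genes, DESeq2 called 25, edgeR with no filter 76, and leaving out a library between 3 and 21 (7 with all). Members at an unadjusted p under 0.05 numbered 0 to 8 when a library was left out. Of 403 member values, 31 turned direction, over 17 members. With all libraries only Lyz2 turned, to 0.0042 with upper-quartile normalization and 0.0098 in limma-voom. When a library was left out, log2 fold changes of the 17 ranged from -0.064 to 0.14 for Anxa1, -0.15 to 0.13 for Camp, -0.19 to 0.059 for Cd177, -0.18 to 0.050 for Cebpe, -0.33 to 0.091 for Ctsg, -0.14 to 0.19 for Hp, -0.18 to 0.15 for Lyz2, -0.20 to 0.055 for Mcemp1, -0.22 to 0.077 for Mmp9, -0.19 to 0.13 for Mpo, -0.14 to 0.21 for Ms4a3, -0.20 to 0.044 for Ncf1, -0.20 to 0.068 for Ncf4, -0.28 to 0.0044 for Padi4, -0.30 to 0.033 for Prtn3, -0.032 to 0.30 for S100a8 and -0.090 to 0.18 for S100a9. The cause was not tested. Summed CPM of early and late genes moved by less than the SD between mice under RLE or unscaled totals. Each member had at least 423 counts in every library, and the intervals rest on 3 mice per group. What limited their precision was not tested.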

Other observations

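Granule genes of eosinophils did not follow the neutrophil members from library to library. Prg2, the eosinophil major basic protein gene, was at 406, 438 and 312 CPM in knock-in, against 458, 593 and 515 CPM in wild-type, and every knock-in library was lower (log2 fold change -0.44, SE 0.15). Prg3, a related gene, was at 28.0, 31.2 and 24.8 CPM in knock-in and 31.9, 42.7 and 40.2 CPM in wild-type, also without overlap (log2 fold change -0.45, SE 0.14). Over all genes tested, every knock-in library was lower for 4.01%. Epx, eosinophil peroxidase, averaged 108.5 ± 26.1 CPM in knock-in and 146 ± 23.7 CPM in wild-type (SD, n = 3 each). Its groups overlapped, with knock-in replicate 1 at 134 CPM above wild-type replicate 3 at 126 CPM. None of these eosinophil genes passed the threshold (edgeR adjusted p = 0.966 each). All were highest in wild-type replicate 2, the library in which 19 of the 31 neutrophil members were lowest. On the same list of 11 genes, those of basophils and mast cells had log2 fold changes of -0.08 to 0.24.

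In the other lists the 2 genes with the smallest p were Csf1r and Ly6c2 (monocyte, log2 fold changes -0.20 and -0.14), Cd68 and Lyve1 (macrophage, -0.33 and 0.34), Rag1 and Vpreb3 (B lineage, -0.46 and -0.36), and Pf4 and Gp1bb (platelet, 0.26 and -0.18). Further pairs were Nkg7 and Cd8a (T and NK cell, -0.59 and 0.38), Gata2 and Flt3 (progenitor, 0.23 and 0.11), Ube2c and Birc5 (proliferation, -0.28 and -0.30), Acp5 and Ocstamp (osteoclast, -0.27 and -0.21), Bglap and Ibsp (osteoblast, 0.18 and 0.14) and Otos and Otog (cochlea, -0.51 and 0.36). The erythroid gene Slc4a1 had a log2 fold change of -0.30. None passed the threshold (edgeR adjusted p = 0.966 to 0.978).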
